A study of Glycine max with 12 samples.

Results

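The genotype effect of GmNAC81 overexpression was described in soybean leaves at R6 (80 DAG, days after germination), the stage at which leaf senescence sets in. It rests on 6 of the 12 libraries of the series, 3 of GmNAC81-3 R6 and 3 of BR16 R6, chosen by their sample labels. BR16 is the untransformed cultivar. GmNAC81-3 is a line of that cultivar in which GmNAC81 is driven by the constitutive 35S promoter. It is the one transgenic line analysed here, so an effect of the transgene and any other difference between this line and BR16 cannot be told apart. Each library came from the third leaf of 1 plant grown under normal conditions, and the other 6 libraries of the series are the same genotypes at V3 (20 DAG).

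GmNAC81 is a plant-specific transcription factor of the NAC family. In soybean it links endoplasmic reticulum stress and osmotic stress to a cell death programme that also runs in senescing leaves. In that pathway ERD15 acts upstream, on the promoter of an NRP gene, and vacuolar processing enzymes (VPEs), proteases with caspase-like activity, are downstream targets of GmNAC81. NAC factors as a family are known as regulators of leaf senescence.

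The R6 libraries held between 54282911 and 77952663 counts and the V3 libraries between 42797825 and 60500341, and reads were summed over 52660 loci, of which 39443 passed the expression filter and were tested. Levels are given as CPM, the count of a locus relative to the total of its library after TMM scaling, and they are not corrected for transcript length. The 3 loci with the most counts took 37.5% to 47.6% of the counts in BR16 R6 and 38.6% to 54.2% in GmNAC81-3 R6. Of the counts below 50, 75% to 78.4% were even numbers in BR16 R6 and 82.9% to 84.0% in GmNAC81-3 R6, so a count of 2 may often stand for 1 read pair. The genotypes do not overlap in that share, whose part in the results was not tested. All 4 loci annotated as rubisco activase, a chloroplast enzyme that marks leaf tissue, were well covered, with group means from 39.0 to 321 CPM and overlapping genotypes.

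At R6 the leaves of both genotypes were close to each other. Against BR16 R6, 26 loci were called higher (0.0659% of the tested loci) and 13 lower (0.033%) in GmNAC81-3 R6. Calling a locus took an adjusted p under 0.05 (edgeR's quasi-likelihood test, Benjamini-Hochberg) together with an absolute log2 fold change above 1. The median absolute log2 fold change over all tested loci was 0.24 at R6 and 0.43 at V3. The genotypes were less balanced at V3, with TMM factors of 0.498 to 0.657 in GmNAC81-3 V3 and 0.969 to 1.38 in BR16 V3. At R6 these factors ran from 0.931 to 1.44 in GmNAC81-3 and from 1.09 to 1.45 in BR16. In fits of each stage alone, edgeR's biological coefficient of variation was 0.36 at V3 and 0.285 at R6. The part of both in the gap between the stages was not tested. In pairs of 1 library of each genotype, log2 CPM at R6 had a median Pearson r of 0.962 across loci, against 0.964 between libraries of BR16 R6 and 0.959 between libraries of GmNAC81-3 R6. Loci are not independent replicates, so these coefficients are descriptions. At V3, for comparison, 1358 loci (3.44%) were called, 691 higher and 667 lower. Deviations of same-numbered V3 libraries correlated positively across genotypes, which does not settle whether they are pairs. A fit with that number as a block called 468 higher and 389 lower at V3, or 862 and 951 with the V3 libraries alone.

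The counts of called loci depended on single libraries. Without replicates 1, 2 and 3 of BR16 R6 in turn, 6, 14 and 11 loci were higher and 3, 25 and 5 lower. Without replicates 1, 2 and 3 of GmNAC81-3 R6, 7, 18 and 10 were higher and 3, 18 and 4 lower. Of the 39 called loci, 8 passed in each of the 12 fits that left out 1 library, and none of the 39 changed sign in any of these fits. DESeq2 called all 39, among 122 higher (0.31%) and 102 lower loci (0.259%).

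The level of GmNAC81 was not detectably different between the genotypes at R6. GmNAC81 (Glyma.12G022700) had 60.7, 11.3 and 41.9 CPM in BR16 R6 and 46.6, 53.5 and 69.1 CPM in GmNAC81-3 R6. The BR16 libraries spread from below to within the range of the GmNAC81-3 libraries. This gave 0.57 as log2 fold change (standard error, SE, 0.62, adjusted p = 0.958), against 4.11 at V3 (SE 0.70, adjusted p = 0.0123). The difference between both genotype effects was -3.54 on the log2 scale (SE 0.90), which missed the threshold (adjusted p = 0.154). All these values include the terminator entry described below. Without it, the unscaled counts were 4421, 553 and 2366 in BR16 R6 and 1332, 2535 and 1902 in GmNAC81-3 R6.

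The composition of the GmNAC81 reads did separate the genotypes. The count table has an entry for a terminator beside the transcript models of the locus. It took 35.3%, 33.5% and 34.9% of the GmNAC81 counts in BR16 R6, and 52.7%, 49.7% and 56.0% in GmNAC81-3 R6. The difference of the means was 18.2 percentage points, with every GmNAC81-3 library above every BR16 library (two-sided exact permutation p = 0.1, the smallest that 3 against 3 libraries allow). At V3 the means were 34.8% ± 0.803 and 53.6% ± 2.79 (SD, n = 3 each), so both stages show the same division. Since BR16 carries no transgene, counts of this entry in BR16 show that it does not measure the transgene alone.

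Of the other pathway genes, ERD15 and 4 VPE loci were looked at, and none was called. GmNAC30, a NAC factor that acts with GmNAC81, and the NRP genes were not looked at by name. All 4 VPE loci had log2 fold changes above 0, where the median over all tested loci was 0.003. The γVPE locus Glyma.14G092800 had 297, 341 and 322 CPM in BR16 R6 and 1120, 644 and 397 CPM in GmNAC81-3 R6. All 3 GmNAC81-3 libraries were higher, but they spread widely, and the log2 fold change of 1.17 (SE 0.58) had an adjusted p of 0.76. The second γVPE locus, Glyma.17G230700, had 733, 530 and 645 CPM in BR16 R6 against 1480, 1690 and 649 CPM, with overlap through replicate 3 of GmNAC81-3 (log2 fold change 1.00, SE 0.68, adjusted p = 0.858). The values of both VPE loci in that replicate were the lowest of their group. Glyma.04G049900, a further γVPE locus, and the βVPE locus Glyma.05G055700 had log2 fold changes of 0.19 and 0.31 (SE 0.33 and 0.25). ERD15 (Glyma.11G149900) had 21.8, 53.3 and 29.4 CPM in BR16 R6 and 47.0, 19 and 53.3 CPM in GmNAC81-3 R6, which overlap fully (log2 fold change 0.19, SE 0.76).

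**Figure D1:**
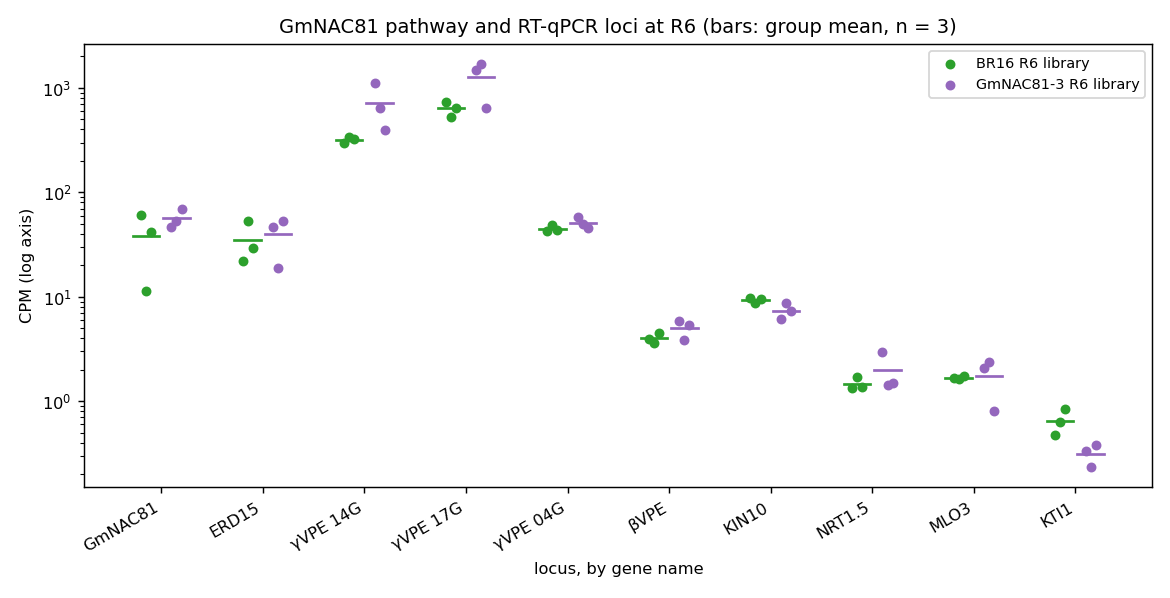
CPM (log axis) of loci of the GmNAC81 pathway and of 4 loci measured by RT-qPCR in the study, in each R6 library (points) with the mean of each genotype (bars, n = 3). Of these 10 loci, the genotypes do not overlap at the γVPE locus of chromosome 14 and at KTI1, and none of the 10 was called.

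The loci that the study had followed by RT-qPCR showed no call at R6 either. KIN10 (Glyma.08G240400), a catalytic subunit of the energy sensor kinase SnRK1, had 9.78, 8.71 and 9.47 CPM in BR16 R6 and 6.11, 8.74 and 7.32 CPM in GmNAC81-3 R6. Its log2 fold change was -0.33 (SE 0.41, adjusted p = 0.969). NRT1.5 (Glyma.09G237600), a nitrate transporter, had 1.35, 1.69 and 1.38 CPM against 2.98, 1.44 and 1.5 CPM, with 1 GmNAC81-3 library above the others (log2 fold change 0.42, SE 0.76).

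MLO3 (Glyma.19G179900), a membrane protein of the MLO family, had a log2 fold change of 0.05 (SE 0.61). KTI1 (Glyma.08G235400), a Kunitz protease inhibitor, had 0.479, 0.627 and 0.842 CPM against 0.331, 0.234 and 0.383 CPM, a log2 fold change of -1.05 with a standard error of 1.57 (adjusted p = 0.98). JMT (Glyma.14G072300), which methylates jasmonic acid, was near 0 in both genotypes, with a highest library of 0.0462 CPM. SPI (Glyma.10G184700) had at most 2 counts in an R6 library and did not pass the filter. At V3, KIN10, JMT and MLO3 were called higher, with log2 fold changes of 2.55, 3.52 and 7.58. The study chose these genes at V3, so their V3 values are no independent result. The differences between both genotype effects, -2.88, -5.29 and -7.53 on the log2 scale, missed the threshold (adjusted p = 0.11, 0.11 and 0.145).

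The called loci were not spread evenly over the genome. Locus names number the genes along each chromosome, and 33 of the 39 called loci (84.6%) lay in 6 stretches in which called loci followed each other at most 100 loci apart. These stretches hold 474 of the tested loci (1.2%). Chromosomes 2, 5, 6 and 18 carried 32 of the 39, and on 12 chromosomes there was none. Of the tested loci on chromosomes 2, 5, 6 and 18, 0.453%, 0.223%, 0.351% and 0.497% were called, against 0.0989% of all tested loci. Chromosome 19 was at 0.216%. Chromosomes 2, 5, 6 and 18 were picked after the calls were seen, so their share is a description without a test. The stretches were drawn around these 39 loci, so their share in them is partly fixed by that definition. Of the 224 loci called by DESeq2, 60 (26.8%) lay in the same stretches. DESeq2 called all 39, so these 60 include the 33 around which the stretches were drawn, and this share is partly fixed as well. None of the 39 is among the loci for which the study's supplementary tables give an annotation, and they are described here by locus name and position in the order of names.

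A run of neighbouring genes on chromosome 2 was raised as a block in GmNAC81-3. It holds 9 of the 26 loci called higher, from Glyma.02G067100 to Glyma.02G090500, and all 9 had log2 fold changes between 1.06 and 1.37. Glyma.02G081000 had the highest level of them, with 24.7, 26.7 and 32.4 CPM in BR16 R6 and 60.6, 65.0 and 64.3 CPM in GmNAC81-3 R6 (log2 fold change 1.18, SE 0.18, adjusted p = 0.0388). Glyma.02G079900 had 3.59, 3.74 and 4.23 CPM against 10.6, 8.53 and 9.30 CPM (log2 fold change 1.3, SE 0.15, adjusted p = 0.00754). Glyma.02G082200 had 3.51, 3.16 and 3.5 CPM against 8.53, 8.16 and 8.29 CPM (log2 fold change 1.3, SE 0.15, adjusted p = 0.00754). In each of these loci the replicates lie close together and the genotypes stand far apart. The others were Glyma.02G068600, Glyma.02G083800, Glyma.02G085000, Glyma.02G085200 and the 2 loci at the ends of the block. Glyma.02G085100, which lies between 2 called neighbours, had a like log2 fold change of 1.26 at a mean of 1.44 CPM in BR16 R6 without a call (adjusted p = 0.22).

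The rest of the block moved with the called loci. Its limits were set from the called loci after their values were seen, so the following values are a description without a test. Of its 217 loci 164 were tested. Their median log2 fold change was 0.95 (quartiles 0.58 and 1.18), and without the 9 called loci it was 0.94. A log2 fold change above 0.5 was found at 127 of the 164 (77.4%), against 9.68% of all tested loci. At 105 (64.0%) every GmNAC81-3 R6 library was above every BR16 R6 library, against 6.8% of all tested loci.

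The GmNAC81-3 R6 libraries were close to each other over the block. Relative to the mean of BR16 R6, the median log2 ratio over the 164 loci was 0.90, 0.92 and 0.94 in the GmNAC81-3 R6 libraries, and 0.00, -0.02 and 0.04 in those of BR16 R6. In the 217 loci before the block the 3 GmNAC81-3 libraries were at 0.00, -0.02 and 0.06, and in the 217 after it at 0.04, 0.03 and 0.06. Both flanks were thus near the BR16 level. With 1 library left out, the median of the block stayed between 0.92 and 0.97, while the number of its loci called ran from 0 to 3 without an R6 library. It was 14 and 11 without replicates 1 and 3 of GmNAC81-3 V3, 2 or 3 without any other V3 library, 3 without the expression filter, 2 with at least 10 counts in every library, 1 with the R6 libraries alone and 42 with DESeq2, or 55 with DESeq2 on the R6 libraries alone, a fit chosen after seeing the data. The median of the block was thus steadier than the calls of its single loci.

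**Figure D2:**
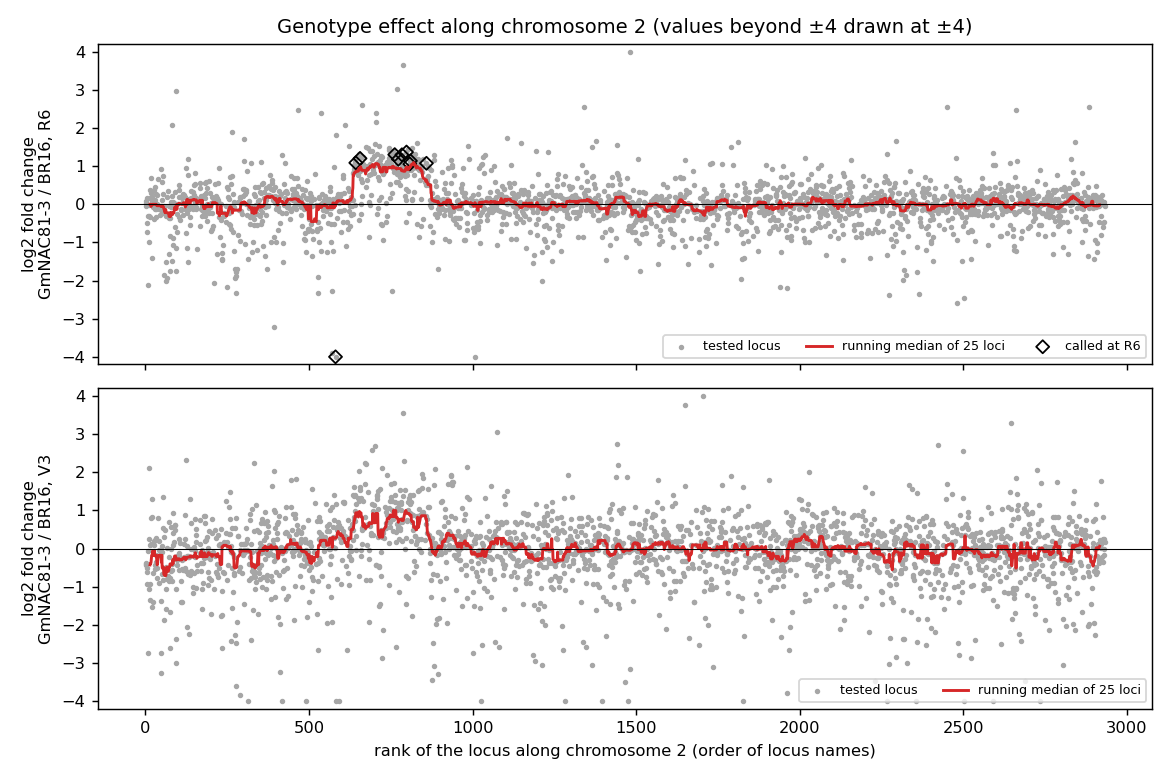
Log2 fold change of GmNAC81-3 against BR16 along the order of loci on chromosome 2, at R6 (top) and V3 (bottom), with the running median of 25 tested loci in red and loci called at R6 as diamonds. Values beyond 4 in either direction are drawn at 4. At R6 the running median steps up to about the log2 value of 1 over the block and is near 0 on both sides, and at V3 it is raised over the block (median 0.75).

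The V3 libraries showed the block as well. Its limits rest on R6 fold changes, but the calls at R6 come from a fit whose spread the V3 libraries share, so they are not fully independent of the choice. The median log2 fold change of the 164 loci at V3 was 0.75, and relative to the mean of BR16 V3 the 3 GmNAC81-3 V3 libraries were at 0.81, 0.71 and 0.75. At V3 77 of the loci (47.0%) had all GmNAC81-3 libraries above all BR16 libraries, against 11.7% of all tested loci, and 42 were called higher and 2 lower, or 34 and 0 when the replicate number was a block. Over windows of 25 tested loci, moved by single loci so that they overlap, the median was above 0.5 at both stages in 153 of 38695. All 153 were on chromosome 2, between Glyma.02G064800 and Glyma.02G092400. In 30 windows, on chromosomes 6, 7, 13 and 15, the median was below -0.5 at both stages. A window around Glyma.13G019900 to Glyma.13G022300 on chromosome 13 had a higher median at R6, 1.57, but its libraries overlapped. Its medians were -1.1, 1.24 and -0.11 in BR16 R6 and -0.05, 1.89 and 2.68 in GmNAC81-3 R6, and at none of its 25 loci did the genotypes stand apart. On chromosome 16, the window from Glyma.16G181900 to Glyma.16G185400 had a median of -1.32 at R6 and of 0.38 at V3, with GmNAC81-3 R6 libraries at -1.7, -0.25 and -2.13. At 14 of its 25 loci the genotypes stood apart at R6. By R6 alone, the median was above 0.5 in 315 windows and below -0.5 in 319.

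Among annotated genes, 3 lie in the block on chromosome 2. ARR2 (Glyma.02G085900), a response regulator of cytokinin signalling that in Arabidopsis also acts in leaf longevity, had 3.45, 3.68 and 4.14 CPM in BR16 R6 and 10.6, 8.26 and 9.14 CPM in GmNAC81-3 R6. These libraries do not overlap, and the log2 fold change of 1.31 (SE 0.23) fell short of the call (adjusted p = 0.0768). RDR1 (Glyma.02G086100), an RNA-dependent RNA polymerase of antiviral silencing, had 9.80, 14.4 and 8.10 CPM against 25.2, 18.2 and 21.5 CPM (log2 fold change 1.01, SE 0.23, adjusted p = 0.235). Both were called by DESeq2, with adjusted p of 2.29e-05 and 0.00733. The third, GATA transcription factor 4 (Glyma.02G073900), was at a low level with overlapping libraries and a log2 fold change of -0.26 (SE 0.61).

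A pair of clusters near one end of the order on chromosome 6 held 8 called loci, 2 higher and 6 lower in GmNAC81-3. In the first, 4 of 5 successive loci were called. Glyma.06G294200 had 0.0533, 0.0818 and 0.0808 CPM in BR16 R6 and 2.98, 4.65 and 2.86 CPM in GmNAC81-3 R6. Its log2 fold change of 5.59 (SE 0.40, adjusted p = 0.000483) was the highest of the called loci. Glyma.06G293900 was also higher, with 3.07, 2.73 and 2.1 CPM against 9.24, 12.4 and 9.41 CPM (log2 fold change 1.97, SE 0.26, adjusted p = 0.0165).

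Their neighbours were lower in GmNAC81-3. Glyma.06G294000 had 452, 229 and 257 counts in BR16 R6 and 16, 22 and 11 counts in GmNAC81-3 R6 (log2 fold change -3.89, SE 0.46, adjusted p = 0.00754). Glyma.06G294300 had 204, 89 and 74 counts in BR16 R6 and 0 in each GmNAC81-3 R6 library. Against a floor of 3 counts per library it was at least 29.9-fold lower by the mean of BR16 R6 (adjusted p = 0.0392). By the lowest BR16 R6 library it was at least 19.8-fold lower. Between them, Glyma.06G294100 had means of 149 and 128 CPM, a log2 fold change of -0.23 without a call (adjusted p = 0.979), so adjacent loci went up, down and neither.

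In the second cluster all 4 called loci were lower in GmNAC81-3. Glyma.06G304100 had 3.73, 2.47 and 2.70 CPM in BR16 R6 and 0.0331, 0.0637 and 0.0639 CPM in GmNAC81-3 R6 (log2 fold change -5.71, SE 0.50, adjusted p = 0.00145). Glyma.06G304600 had 8.08, 4.65 and 5.27 CPM against 0.166, 0.616 and 0.0958 CPM (log2 fold change -4.29, SE 0.69, adjusted p = 0.0499). Glyma.06G304300 went from 5.49, 3.79 and 3.81 CPM to 0.431, 0.945 and 0.895 CPM (log2 fold change -2.52, SE 0.33, adjusted p = 0.0165). Glyma.06G304400, with at most 39 counts in a library, had a log2 fold change of -3.33 (SE 0.53, adjusted p = 0.0499).

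Of the loci between these, Glyma.06G304500 had a log2 fold change of -1.92 (adjusted p = 0.229) and Glyma.06G304200 one of -0.27 (adjusted p = 0.867). The 25 tested loci from Glyma.06G301900 to Glyma.06G304900 had a median of -0.82 at R6, with GmNAC81-3 libraries at -0.63, -0.44 and -1.04, and of -0.19 at V3. A few loci further, GLR3.4 (Glyma.06G305000), annotated as a glutamate receptor channel, had 10.6, 11.6 and 11.8 CPM against 15.4, 16.7 and 16.8 CPM, which do not overlap but were not called (log2 fold change 0.53, SE 0.16, adjusted p = 0.498). The whole span from the first to the second cluster had a median of -0.01 over its 75 tested loci, without a shift of the whole span. How reads shared by near-identical neighbouring copies were counted is not given in the sources used here, and levels of adjacent loci are uncertain where such copies exist.

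On chromosome 18, loci called in opposite directions were interleaved. The stretch from Glyma.18G082200 to Glyma.18G108100 holds 163 tested loci, of which 6 were called higher and 3 lower, while its median was 0.00. Glyma.18G082800 had 0.95, 0.75 and 1.26 CPM in BR16 R6 and 15.7, 14.7 and 11.7 CPM in GmNAC81-3 R6 (log2 fold change 3.83, SE 0.32, adjusted p = 0.00129). Glyma.18G107000 had 0.133, 0.150 and 0.254 CPM against 3.53, 3.69 and 6.09 CPM (log2 fold change 4.62, SE 0.43, adjusted p = 0.00203). Glyma.18G108100 had 0.0622, 0.0682 and 0.0923 CPM against 1.89, 1.36 and 2.89 CPM (log2 fold change 4.75, SE 0.46, adjusted p = 0.00271). These 3 loci were low in BR16 and many times higher in each GmNAC81-3 library.

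The same held for Glyma.18G084600, with 0, 4 and 3 counts in BR16 R6 and 62, 85 and 70 counts in GmNAC81-3 R6 (log2 fold change 5.13, SE 0.62, adjusted p = 0.0091). Glyma.18G082200 (4.30, SE 0.57) and Glyma.18G093800 (4.06, SE 0.62) were the other loci called higher there. In the opposite direction, Glyma.18G086600 had 14.6, 20.0 and 15.5 CPM in BR16 R6 and 1.26, 2.63 and 1.15 CPM in GmNAC81-3 R6 (log2 fold change -3.30, SE 0.46, adjusted p = 0.0248). Glyma.18G099700 had 145, 68 and 70 counts against 4, 2 and 0 (log2 fold change -5.08, SE 0.57, adjusted p = 0.00653). Glyma.18G084000 had 93, 86 and 66 counts against 0, 6 and 2 (log2 fold change -4.64, SE 0.69, adjusted p = 0.0388). The genotypes stand apart in each of the 3, with the GmNAC81-3 libraries low.

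**Figure D3:**
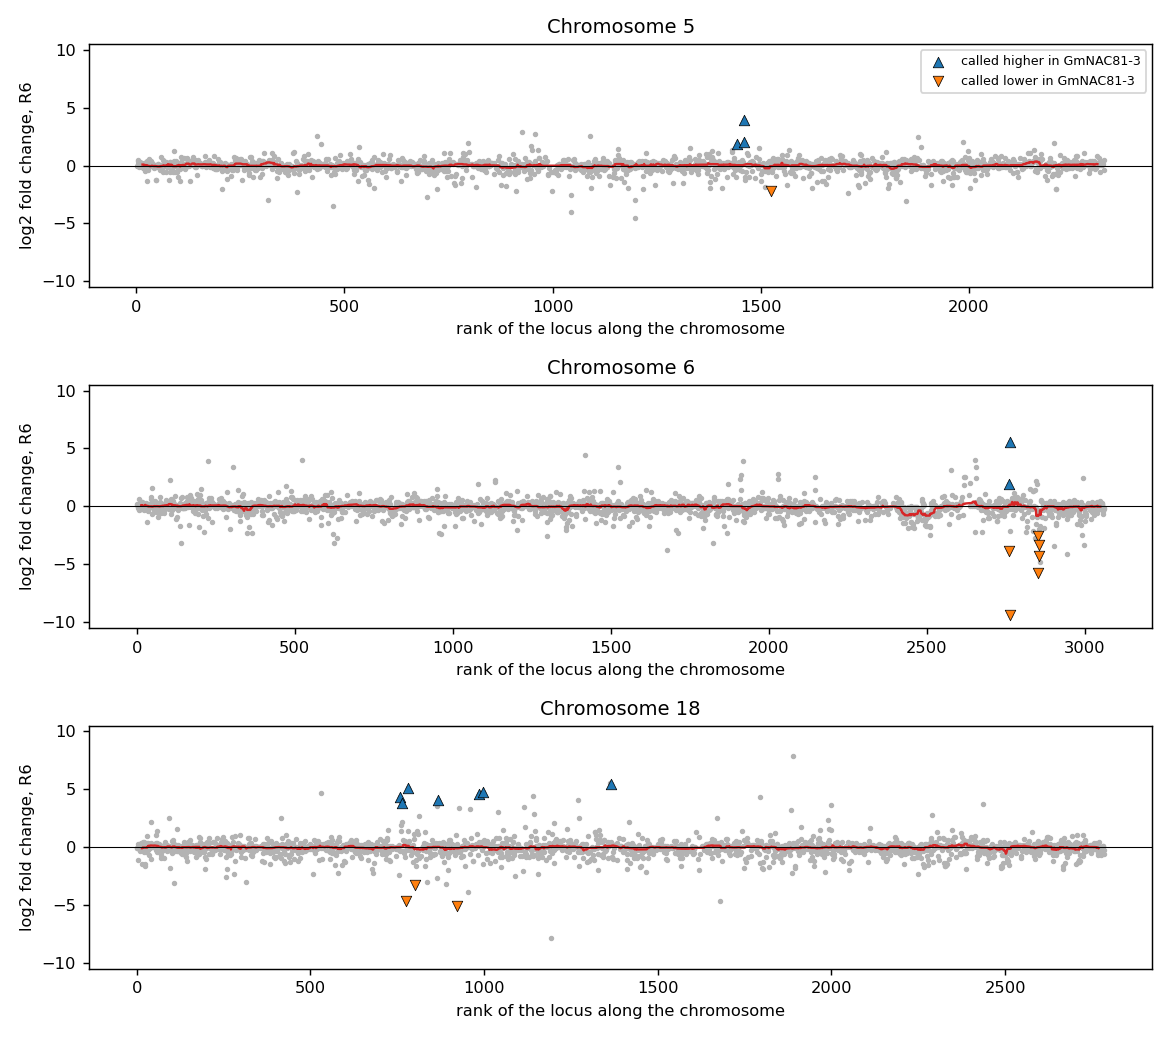
Log2 fold change of GmNAC81-3 R6 against BR16 R6 along the order of loci on chromosomes 5, 6 and 18, with loci called higher as upward and lower as downward triangles, other tested loci in grey and the running median of 25 tested loci in red. Called loci of both directions sit together in short stretches while the running median over the stretches on chromosomes 5 and 18 is near 0. The lowest triangle of chromosome 6 is Glyma.06G294300, whose GmNAC81-3 R6 libraries are all at 0, so its fitted value is not a measured fold.

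Chromosomes 5 and 19 each held 4 called loci. On chromosome 5, Glyma.05G158700 and its neighbour Glyma.05G158800 were both higher. The former had 2.20, 2.22 and 3.00 CPM in BR16 R6 and 10.7, 10.9 and 8.82 CPM in GmNAC81-3 R6 (log2 fold change 2.03, SE 0.31, adjusted p = 0.0388). The latter had 13, 4 and 16 counts against 111, 142 and 132 (log2 fold change 3.90, SE 0.43, adjusted p = 0.0065). Glyma.05G156800 was higher by 1.90 on the log2 scale (SE 0.24) and Glyma.05G165700 lower, at -2.18 (SE 0.33). Their stretch of 57 tested loci had a median of 0.02.

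On chromosome 19, Glyma.19G115400 had 0.0710, 0.0818 and 0.381 CPM in BR16 R6 and 7.93, 4.36 and 4.38 CPM in GmNAC81-3 R6 (log2 fold change 4.96, SE 0.55, adjusted p = 0.0065). Glyma.19G109300 had 64, 28 and 37 counts against 2 in each GmNAC81-3 R6 library. The ratio of BR16 to GmNAC81-3 for summed counts per scaled library was 17.1, with an exact 95% interval for counting error of 7.65 to 47.5 (adjusted p = 0.0065). That interval takes each count as independent and is too narrow where 2 counts stand for 1 read pair. Glyma.19G026800 and Glyma.19G061900 were higher, by log2 fold changes of 3.58 and 1.22 (SE 0.42 and 0.19).

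A few called loci stood by themselves. Glyma.18G148600 had 4, 1 and 26 counts in BR16 R6 and 399, 369 and 307 in GmNAC81-3 R6 (log2 fold change 5.45, SE 0.77, adjusted p = 0.0269). Glyma.07G224400 had 0.178, 0.136 and 0.369 CPM against 5.56, 4.54 and 5.18 CPM (log2 fold change 4.47, SE 0.52, adjusted p = 0.00754). Glyma.04G094200 had 4, 6 and 11 counts against 105, 62 and 107 (log2 fold change 4.07, SE 0.57, adjusted p = 0.0248). These 3 loci were low in BR16 at both stages, with means from 0.0332 to 0.228 CPM.

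Glyma.20G230300 was lower, with 1.01, 0.818 and 1.04 CPM in BR16 R6 against 0.116, 0.191 and 0.144 CPM (log2 fold change -2.64, SE 0.36, adjusted p = 0.0244). On chromosome 2, outside the raised block, Glyma.02G060600 had 40, 25 and 19 counts in BR16 R6 and 0 in each GmNAC81-3 R6 library (adjusted p = 0.0388). Against the floor of 3 counts per library it was at least 7.07-fold lower by the mean of BR16 R6. By the lowest BR16 R6 library it was at least 5.08-fold lower, with the same limit from read pairs.

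**Figure D4:**
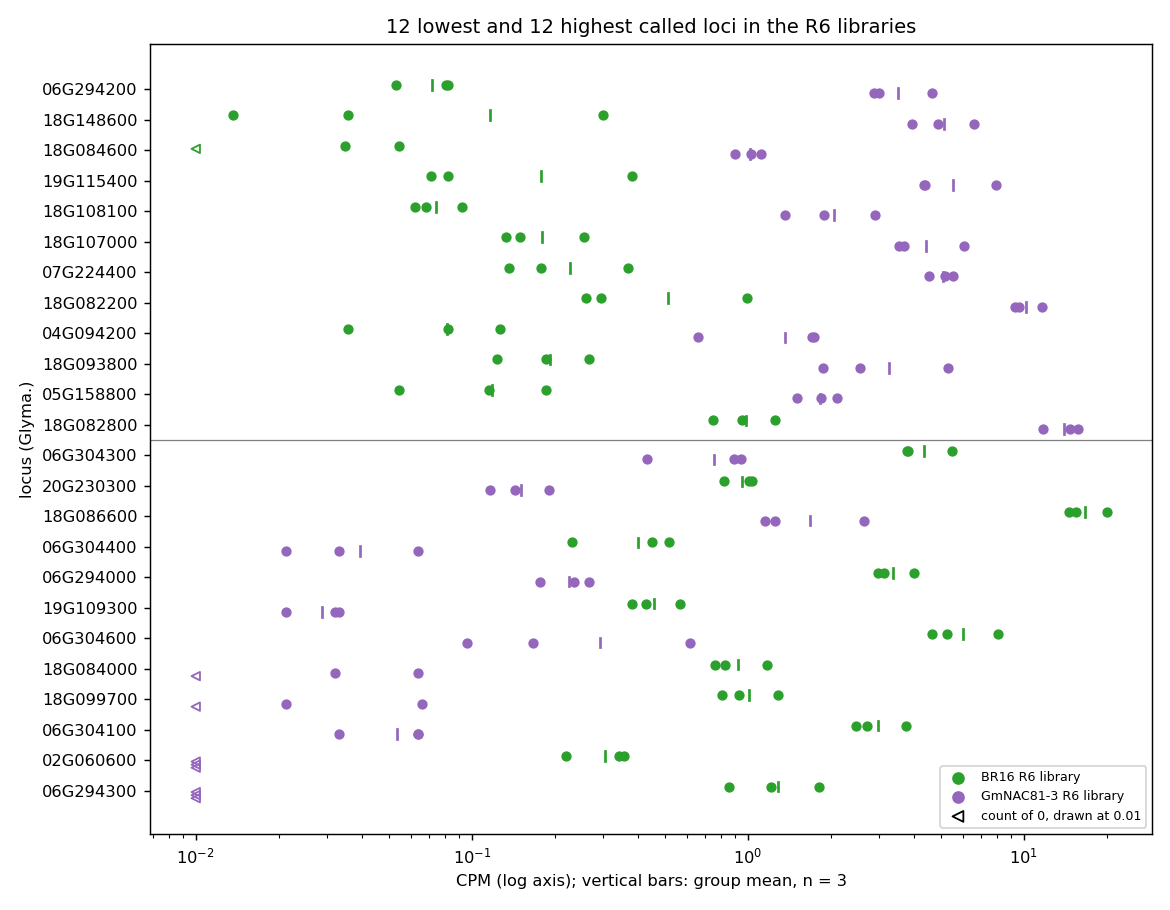
CPM (log axis) in each R6 library of the 12 called loci with the lowest and the 12 with the highest log2 fold change, with group means as vertical bars (n = 3, not drawn where a library is at 0) and counts of 0 as open triangles at 0.01. In each of the 24 loci the libraries of both genotypes are separate.

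Many of the called loci were thus low in one genotype. In 26 of the 39 the mean of the lower genotype was under 1 CPM, in 5 both means were under 1 CPM, and 9 loci exceeded 10 CPM in either genotype. The size of the change fell into separate ranges among the loci called higher, with 13 at a log2 fold change under 2.1, 9 of them from the block on chromosome 2, and 13 above 3.5. The loci with the most stable calls, which passed in each fit that left out 1 library, were Glyma.06G294200, Glyma.06G304100, Glyma.18G082800, Glyma.18G099700, Glyma.18G107000, Glyma.18G108100, Glyma.19G109300 and Glyma.19G115400. Over these 8 the adjusted p reached at most 0.0464 in these fits, and over the other 31 it reached up to 0.318.

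Most of these loci had a genotype difference of the same direction in V3 leaves. Of the 39 loci called at R6, 37 had the same direction at V3, against 21634 of the 39443 tested loci. At 33 the V3 libraries of both genotypes were apart in that direction, against 11.7% upwards and 12.3% downwards of all tested loci. At V3, 25 (64.1%) were called in the same direction, against 3.44% of all tested loci, and they make up 1.84% of the 1358 loci called at V3. With the replicate block, 24 of the 39 were called at V3 in the same direction. The V3 and R6 contrasts share no library, but their plants are of the same line and the fit pools their spread. In the block on chromosome 2 the 9 loci called at R6 had log2 fold changes from 0.77 to 1.61 at V3, where 6 were called and the libraries of all 9 were apart.

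Among strong examples, Glyma.07G224400 had log2 fold changes of 4.47 at R6 and 4.61 at V3 (SE 0.52 and 0.54). Glyma.18G148600 had 5.45 and 8.32 (SE 0.77 and 0.94), Glyma.19G115400 had 4.96 and 7.53 (SE 0.55 and 0.64), and Glyma.18G099700 had -5.08 and -4.13 (SE 0.57 and 0.55). At 2 of the 39 the difference between both genotype effects was itself called (28 of all tested loci, 0.071%), or 6 of all tested loci in the fit with the replicate block.

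Glyma.06G293900 reversed its direction between the stages. At V3 it had 23.6, 12.4 and 20.2 CPM in BR16 and 0.826, 1.18 and 0.996 CPM in GmNAC81-3, a log2 fold change of -4.23 (SE 0.30, adjusted p = 0.000381). At R6 it was higher in GmNAC81-3, as given above, and the effects differed by 6.20 (SE 0.39, adjusted p = 0.000124). Its level in GmNAC81-3 was thus lower than in BR16 in young leaves and higher in old ones. For Glyma.19G109300 the genotypes overlapped at V3, with means of 0.65 and 0.506 CPM, and the effect differed by -3.59 between the stages (SE 0.55, adjusted p = 0.0497). That call was lost with the replicate number as a block (-3.56, adjusted p = 0.126), while the one of Glyma.06G293900 was not (6.21, adjusted p = 0.00204).

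Glyma.06G304300 was the other locus whose sign changed, from 0.82 at V3 (SE 0.43, not called) to -2.52 at R6, and the difference of -3.34 missed the threshold (adjusted p = 0.0593). For the loci of both clusters on chromosome 6 the level in BR16 also differed between stages, since the BR16 mean of Glyma.06G294000 was 0.320 CPM at V3 and 3.37 CPM at R6, and that of Glyma.06G304100 was 0.135 and 2.97 CPM. The stages were sequenced as separate sets, and an effect of stage and one of the set cannot be told apart.

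**Figure D5:**
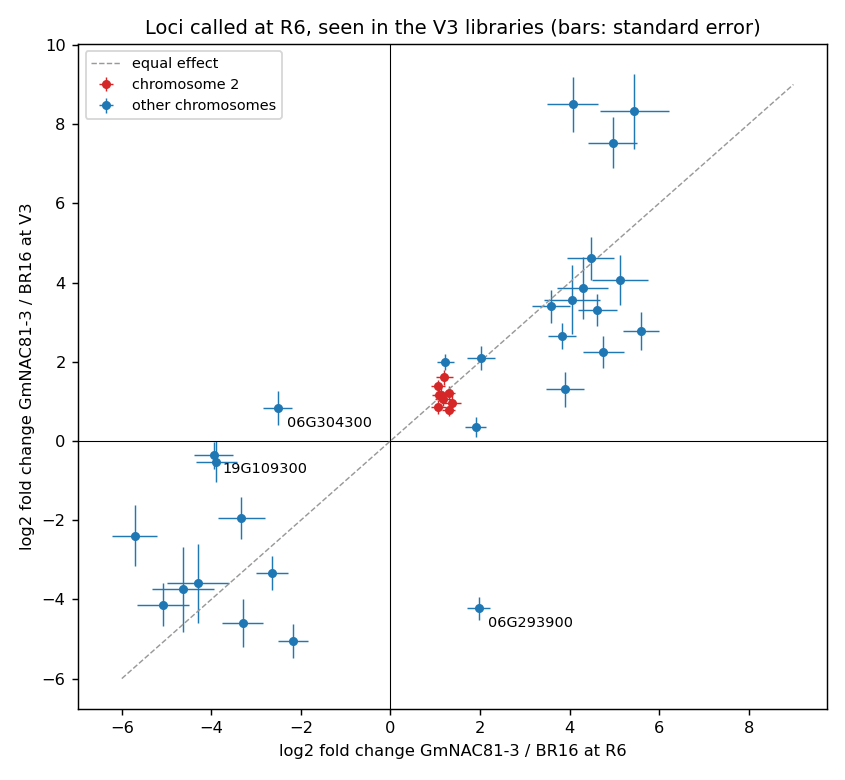
Log2 fold change of GmNAC81-3 against BR16 at R6 (horizontal axis) and at V3 (vertical axis), with standard errors, for 37 of the 39 loci called at R6 (the other 2, at 0 in GmNAC81-3 R6, are not drawn). The loci of chromosome 2 lie together near equal effects, and Glyma.06G293900 lies alone at the lower right, higher at R6 and lower at V3.

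In the reverse view, the loci called at V3 had smaller median fold changes at R6. They were chosen for large fold changes at V3, so smaller medians at R6 are partly fixed by that choice. The 691 loci called higher at V3 (1.75%) had a median log2 fold change of 1.53 there and of 0.20 at R6, and 20 of them were called higher at R6. The 667 called lower at V3 (1.69%) had medians of -1.94 and -0.05, and 5 were called lower at R6. The direction was the same at R6 in 468 (67.7%) of the former and 381 (57.1%) of the latter. Over all 39443 tested loci it was the same at 21634. At 162 (23.4%) of those called higher and 81 (12.1%) of those called lower the R6 libraries were apart in that direction. Since the difference of both effects was called at 28 of all tested loci, it was not shown for most single loci. Outside the 6 stretches, 649 loci were called higher at V3, of which the R6 libraries were apart in the same direction at 127 (19.6%, against 6.8% of all tested loci). Of the 644 called lower outside the stretches this was so at 72 (11.2%, against 6.86%).

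Senescence, hormone and stress genes were next compared by the lists in the study's supplementary tables, which the study selected on its V3 contrast. Of the 394 loci in 14 lists, 391 were tested, and edgeR called 0 of them at R6 (background 0.0989%). An unadjusted p under 0.05 was found at 33 (8.44%, against 6.86% of all tested loci), and DESeq2 called 3. Their median log2 fold change was 0.02, against 0.00 over all tested loci. In either direction, the genotypes stood apart at 12.5% of the list members and at 13.7% of all tested loci. By direction they stood apart upwards at 6.8% and downwards at 6.86% of all tested loci, the background for the counts of single lists below. Beside ARR2 and RDR1, DESeq2 called an EBF1 locus (Glyma.13G166200), an F-box protein that degrades the ethylene factor EIN3, which is named here because of that call. It had 36.7, 24.9 and 34.6 CPM in BR16 R6 and 8.71, 15.6 and 14.5 CPM in GmNAC81-3 R6 (log2 fold change -1.31, SE 0.30, adjusted p = 0.268 with edgeR and 0.0139 with DESeq2).

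The leaf senescence list held 63 tested loci with a median of 0.06, of which 6 were apart upwards and 6 downwards. SAG21 (Glyma.10G017600), a small protein known from senescing and stressed Arabidopsis leaves, had 21.7, 11.9 and 30.9 CPM in BR16 R6 and 8.53, 6.46 and 9.26 CPM in GmNAC81-3 R6. Its libraries were apart without a call (log2 fold change -1.41, SE 0.38, adjusted p = 0.435). A homologue of NAP (Glyma.07G229100), a NAC factor that promotes leaf senescence in Arabidopsis, had 2.49, 2.18 and 3.55 CPM against 1.87, 1.66 and 1.85 CPM (log2 fold change -0.61, SE 0.64, adjusted p = 0.956). The 11 loci of the aging list had a median of 0.33, with the genotypes overlapping at each of them, and the 6 of negative regulation of leaf senescence a median of 0.14, also with overlap at each.

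The ethylene list had 62 tested loci and a median of -0.10, with 4 apart upwards and 5 downwards. Besides ARR2 and γVPE at its upper end, it holds a second EBF1 locus, Glyma.04G147000, with 6.97, 2.82 and 5.40 CPM in BR16 R6 and 1.92, 2.31 and 0.735 CPM in GmNAC81-3 R6 (log2 fold change -1.61, SE 0.71, adjusted p = 0.717). PDR12 (Glyma.03G168200), an ABC transporter known to carry abscisic acid in Arabidopsis, was near 0 in both genotypes. In the fruit ripening list 3 of 7 tested loci were apart, all downwards (background 6.86%), and the median was -0.58. Its ACO4 loci encode enzymes of the last step of ethylene synthesis. Glyma.02G268200 had 1.1, 0.409 and 1.37 CPM against 0.199, 0.191 and 0.128 CPM (log2 fold change -2.46, SE 0.69, adjusted p = 0.491), and Glyma.02G268000 had 369, 305 and 352 CPM against 217, 291 and 180 CPM (log2 fold change -0.58, SE 0.31, adjusted p = 0.792). At V3 the latter had a log2 fold change of 1.33 and the former of -7.33.

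The cell death list had 29 tested loci, a median of 0.06 and 4 loci apart upwards, none with a log2 fold change above 0.52 among those 4. They were 2 MLO8 loci and 2 loci of RNA-binding proteins. Programmed cell death had 12 tested loci with a median of -0.20, with HXK1 (Glyma.08G033300), the glucose-sensing hexokinase, apart upwards at 0.56 (adjusted p = 0.673) and KTI1 downwards. The 4 loci of vacuolar protein processing had a median of 0.66, with 1 apart upwards and 0 downwards. Both loci of the regulation of leaf senescence list, annotated as DHHC-type zinc finger proteins, were apart downwards at log2 fold changes of -0.32 and -0.14.

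The circadian rhythm list had 56 tested loci and a median of 0.14. SPT (Glyma.11G054600), a bHLH factor, had 5.34, 5.88 and 7.06 CPM in BR16 R6 and 11.8, 11 and 10.1 CPM in GmNAC81-3 R6 (log2 fold change 0.85, SE 0.35, adjusted p = 0.673), and a type-A response regulator, Glyma.11G155100, had 15.4, 8.68 and 17.2 CPM against 3.25, 5.89 and 5.59 CPM (log2 fold change -1.49, SE 0.68, adjusted p = 0.722). In both the libraries were apart. The wounding list, with 120 tested loci, had a median of 0.05, with 10 apart upwards (8.33%, background 6.8%) and 3 downwards (background 6.86%). It includes IAA17 (Glyma.13G361200), a repressor of auxin responses, with 1.25, 0.559 and 1.12 CPM against 5.22, 2.02 and 3.16 CPM (log2 fold change 1.81, SE 0.55, adjusted p = 0.524).

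The salicylic acid list had 55 tested loci, a median of -0.14 and 3 apart in each direction, among them a tau glutathione S-transferase, Glyma.05G161600, at -1.07 (adjusted p = 0.809), and RDR1. The drought list had 53 tested loci and a median of -0.13, with 3 apart upwards and 2 downwards. CBF4 (Glyma.09G147200), a transcription factor of drought responses, had 1.56, 0.695 and 1.35 CPM in BR16 R6 and 0.613, 0.573 and 0.607 CPM in GmNAC81-3 R6 (log2 fold change -1.01, SE 0.41, adjusted p = 0.672). At V3 the drought list had a median of -1.34, on the libraries on which it was selected.

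None of the loci that dominate the libraries was called. Glyma.13G028200 took 16.8%, 21.2% and 16.6% of the counts in BR16 R6 and 23.3%, 17.1% and 19.1% in GmNAC81-3 R6 (log2 fold change 0.33, SE 0.60, adjusted p = 0.984). Glyma.11G162200 and Glyma.05G073600 followed with 14.2% to 20.6% and 6.80% to 10.3%. Over the 10 loci with the highest mean share, log2 fold changes ran from -0.41 at Glyma.12G232000 to 0.52 at Glyma.12G061600, without a call.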

How the data were processed

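RNA was measured by paired-end sequencing of stranded libraries. Per the paper's Supplementary Methods, the authors trimmed reads with Sickle, aligned the remainder to assembly Wm82.a2.v1 of soybean using Bowtie 2 and obtained counts through Rsubread, while the submitters' processing notes name HISAT2 2.1.0 and featureCounts. The deposited values are raw counts for 84782 transcript models, without normalization, and they were summed per locus here, with the terminator entry added to GmNAC81.

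The analysis used edgeR 4.0.16 under R 4.3.3. After filterByExpr and TMM, group means of all 12 libraries (3 per group) were fitted, and contrasts were tested with the quasi-likelihood test, Benjamini-Hochberg adjusted over 39443 loci. Adjusted p-values are from this test unless DESeq2 (1.42.0) is named. Libraries are separate plants. Deviations of same-numbered libraries from their group means correlated at 0.404, 0.221 and 0.129 at V3 and negatively at R6. Differently numbered pairs ran from -0.352 to 0.208 at V3 and reached 0.415 at R6. Replicate numbers may thus pair the V3 libraries, which neither these correlations nor the labels settle. After seeing the data, V3 results were also fitted with a block for the number. The range of depths is given in the report, and intervals cover counting error alone.

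Named are GmNAC81, ERD15, the VPE loci, the RT-qPCR loci, every called locus and the loci between called neighbours. Also named are up to 2 highest and 2 lowest members of a list whose libraries do not overlap, and the leading loci by level. These members and lists were chosen with earlier results of these data known. Gene names come from the study's supplementary tables and rest on Arabidopsis homologues. Lists by gene description, leaf and other organ markers beyond rubisco activase, and promoter motifs were not analysed here, because the reference table used here does not pair with these locus names.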

Additional observations from a re-analysis of the deposited data

Results flagged for a closer look

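At 2 of the named loci the genotype effect differed between R6 and V3 by the test of the difference itself. The first was Glyma.06G293900, where the effects differed by 6.20 on the log2 scale (R6 minus V3, standard error 0.39, adjusted p = 0.000124, edgeR). All 3 GmNAC81-3 libraries were above those of BR16 at R6 and below them at V3. The second was Glyma.19G109300, at -3.59 (standard error 0.55, adjusted p = 0.0497), which rests on 2 counts in each GmNAC81-3 R6 library and was not called with the replicate number as a block (-3.56, adjusted p = 0.126). Groups of 3 libraries were not searched for single outlying libraries.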

How the results depend on the processing

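The 26 higher and 13 lower loci became 122 and 102 with DESeq2, 8 and 0 with at least 10 counts in every library (with 695 higher and 1205 lower at an unadjusted p under 0.05), 8 and 4 with the R6 libraries alone, 11 and 4 at an adjusted p of at most 0.01, and 155 and 219 with DESeq2 on the R6 libraries alone, a fit chosen after seeing the data. Of these fits, DESeq2 shared all 39 calls and the R6 libraries alone 10. With 1 library left out, 6 to 32 were higher and 3 to 25 lower. Beside the R6 libraries named in the report, those of BR16 V3 mattered, with 7, 8 and 6 lower loci without replicates 1, 2 and 3 and 15 higher without replicate 3, and 16 were higher without GmNAC81-3 V3 replicate 2. DESeq2 size factors, no expression filter, no limit of fold change and counts per transcript model moved neither count by over 1.5 times. With the replicate number as a block 14 and 5 were called, and with the block on the R6 libraries alone 0 and 0 (899 higher and 1078 lower at an unadjusted p under 0.05). Deviations of same-numbered R6 libraries correlated at -0.147, -0.366 and -0.119, without a sign of pairing. GmNAC81 stayed uncalled at 0.13 to 1.08 with 1 library left out and at 0.54 and 0.84 with the block. Of single loci, ERD15 (Glyma.11G149900) ran from -0.08 to 0.62 with 1 library left out and turned to -0.06 without BR16 R6 replicate 1 and -0.08 without GmNAC81-3 R6 replicate 3, and MLO3 (Glyma.19G179900) to -0.09 with the block, -0.08 with the block on R6 alone, and -0.08 and -0.23 without GmNAC81-3 R6 replicates 1 and 2 (range with 1 library left out -0.23 to 0.40). At V3, where the numbers may pair the libraries, the block moved the 691 higher and 667 lower loci to 468 and 389. The named V3 calls of GmNAC81, KIN10, JMT, MLO3 and Glyma.06G293900 were kept, that of MLO3 near the threshold (adjusted p = 0.0461, edgeR). The γVPE locus Glyma.14G092800 was not called at V3 with the block over all 12 libraries (adjusted p = 0.0787, edgeR). With the block on the V3 libraries alone it passed (log2 fold change 2.09, adjusted p = 0.0365). The median of the chromosome 2 block stayed between 0.89 and 0.99. Causes were not tested. Low counts limit loci near 0 in a genotype.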
